A study of Mus musculus with 6 samples.

Results

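The CELF and muscleblind (MBNL) genes encode RNA-binding proteins that act on the same pre-mRNAs and mRNAs, and all 9 mouse members, Celf1 to Celf6 and Mbnl1 to Mbnl3, were read in retinal ganglion cells (RGCs) before and after birth. The members were chosen by gene symbol, with earlier results of these data known. They make up 9 of the 24060 genes of the count table. All 9 had enough reads to be tested, as did 16449 genes in all. RGCs of C57BL/6 mice were purified by immunopanning, in which macrophages were first removed on antibody-coated dishes and the remaining cells were held by antibodies against the surface protein CD90 (Thy1). No transgene or treatment was given in the labels. RNA was sequenced from 3 samples at embryonic day 18 (E18, replicates 1, 3 and 4) and 3 samples at postnatal day 5 (P5, replicates 6, 8 and 9). The study compared these ages because RGCs extend axons readily at E18 and no longer do so at P5. The labels do not say whether the samples came from separate animals or pools, so p-values measure the spread between these samples only. The name of the E18 replicate 1 column also holds 2 and 5, and whether it pools several preparations is not stated.

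CELF proteins carry RNA recognition motifs and bind GU-rich RNA, where they direct exon choice in the nucleus and mRNA decay and translation in the cytoplasm. MBNL proteins bind RNA through zinc fingers at UGC-containing sites and are known for moving splicing from fetal to adult patterns. In muscle and brain the families often act in opposite directions on the same exon, and in myotonic dystrophy expanded CUG repeats sequester MBNL proteins while CELF1 is raised. CELF2 and its nematode relative have been linked to axon regeneration. Gene counts do not show which exons were used, so the values here are transcript levels and not splicing.

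Among the members that passed the test, Celf3 had the highest and Mbnl2 the lowest fold change of E18 over P5. Celf3 was 2.47-fold higher at E18 than at P5, and Mbnl2 was 2.63-fold higher at P5 than at E18. Their promoter sequences are shown because these genes had the highest and lowest fold changes among the called members. Each is the reference sequence of RefSeq on GRCm38.p6, the assembly behind mm10, from 250 bases before to 50 bases after the transcript start at the first exon of the gene in GENCODE. The Celf3 window lies at chr3:94478045-94478344 and the Mbnl2 window at chr14:120275419-120275718, on the plus strand in each case. Capitals mark matches to the motifs searched.
Celf3: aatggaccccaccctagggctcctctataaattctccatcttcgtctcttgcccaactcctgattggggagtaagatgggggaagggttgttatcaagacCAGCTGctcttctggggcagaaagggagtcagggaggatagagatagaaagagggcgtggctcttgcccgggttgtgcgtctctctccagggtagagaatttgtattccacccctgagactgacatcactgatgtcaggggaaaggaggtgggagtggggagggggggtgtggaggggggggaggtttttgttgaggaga
Mbnl2: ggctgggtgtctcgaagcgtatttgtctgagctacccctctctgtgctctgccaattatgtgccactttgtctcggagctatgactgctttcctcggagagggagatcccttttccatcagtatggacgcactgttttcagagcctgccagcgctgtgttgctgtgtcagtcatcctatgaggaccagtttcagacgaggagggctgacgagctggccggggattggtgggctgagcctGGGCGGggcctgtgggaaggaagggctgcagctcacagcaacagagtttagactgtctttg

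Motifs were sought on either strand in 24 RefSeq windows of 8 members. Member windows on chromosome 18, which holds Celf4, were left out of this search. Celf3 has 7 of these windows, which overlap in part. The printed Celf3 window holds 1 E-box (CAGCTG), 150 bases before the start, and this motif is in 16.3% of all 32851 windows. The printed Mbnl2 window holds 1 GC box (GGGCGG), 11 bases before the start, and this motif is in 35.7% of all windows. Over the 24 member windows, the GC box was in 12, from 7 members, and the E-box in 5, from 3 members. The core bound by Ets factors such as Elk-1 (CCGGAAG), the factor that the study pursued, was in 0 of the 24 windows, and 8.86% of all windows hold it. Of the parts of the REST site, TTCAGCACC was in 0 windows (0.371% of all) and GGACAGC in 1, a Celf2 window (6.56% of all). The cyclic AMP response element (TGACGTCA) was in 4 windows, and 1.79% of all windows hold it. These 4 belong to Celf6 and to Celf3, whose windows with this motif overlap each other. The motifs do not overlap each other in the printed windows. These matches describe the letters of the windows and not binding.

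Between the ages, 43.4% of the genes tested were called by edgeR's quasi-likelihood test with Benjamini-Hochberg adjustment at 0.05, 20.8% higher at E18 and 22.5% lower. Of the 9 members, 3 were called higher at E18, namely Celf2, Celf3 and Celf5, and 1, Mbnl2, was called lower. The count of 4 of 9 is close to the share over all genes. The E18 and P5 values did not overlap in 4 members, the same 4 that were called, against 56.1% of all genes. The median log2 fold change of E18 over P5 was 0.29 over the members and 0.00 over all genes. No CELF gene was called lower at E18 by edgeR, where 1, Celf4, had an unadjusted p under 0.05, and DESeq2 called 0. No MBNL gene was called higher at E18 by edgeR, where 0 had an unadjusted p under 0.05, and DESeq2 called 0.

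Total counts on genes ranged from 81213639 to 114512853 per sample, so the depth limits only Mbnl3 among the members. The RGC markers summed to 8720 to 9906 CPM at E18 and 9216 to 10271 CPM at P5, where CPM is the count of a gene relative to the TMM-scaled total of its library, on the usual counts-per-million scale. Of these 15 markers, 4 were called higher at E18 and 5 lower. Markers of dividing cells (9 of 14 called higher at E18, none lower) summed to 90.4 to 373 CPM at E18 and 70.6 to 88.7 CPM at P5. Retinal progenitor markers (6 of 12 called higher, none lower) summed to 32.0 to 182 CPM and 21.6 to 29.8 CPM. In these lists E18 replicate 1 was the highest sample. Amacrine markers (5 of 9 tested called higher, none lower) summed to 638 to 959 CPM and 528 to 653 CPM, most of it Pax6. RGCs also express Pax6. Tfap2b had 47.5, 119 and 1.62 CPM in E18 replicates 1, 3 and 4, and 1.02 to 1.55 CPM at P5. Gad1 had 19.2, 35.1 and 0.486 CPM in those E18 samples and 1.86 to 3.91 CPM at P5. Slc6a9 had 6.74, 6.95 and 7.68 CPM in those E18 samples, without this pattern. Some lists separated the ages without overlap. The markers of Müller glia and astrocytes summed to 352 to 378 CPM at E18 and 319 to 327 CPM at P5, and those of oligodendrocytes to 75.0 to 77.6 and 40.1 to 63.6 CPM. Bipolar markers summed to 56.7 to 82.5 CPM at E18 and 85.5 to 119 CPM at P5, and microglial markers to 19.3 to 21.8 and 24.0 to 33.9 CPM. Endothelial and pericyte markers (16.5 to 72.8 and 14.6 to 17.9 CPM) and photoreceptor markers (4.32 to 12.8 and 4.30 to 5.63 CPM) overlapped. The part of these cells in the results was not tested. Red blood cell genes summed to at most 1.82 CPM, nearly all of it Alas2. Of these 8 genes, 5 were at 0 in every sample, all of them globin genes. The multi-mapping settings are not given, and whether globin reads were lost in counting was not tested. In such bulk samples, fewer cells of a type and less RNA per cell cannot be told apart.

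**Figure D1:**
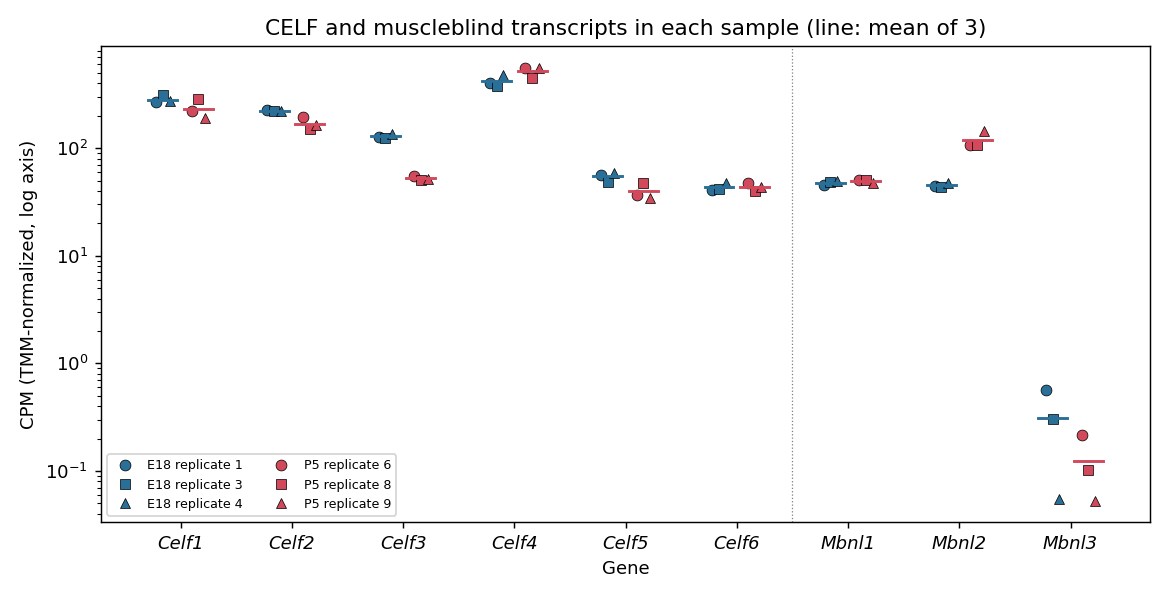
CPM of each member (log axis) in the 3 E18 samples (blue) and the 3 P5 samples (red), with the mean of each age as a line. The Celf3 points at E18 all lie above 120 CPM and those at P5 below 60 CPM, the Mbnl2 points at E18 all lie below those at P5, and Mbnl3 stays below 1 CPM in all 6 samples.

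Celf3, a CELF protein made mainly in neurons, had the largest difference of its family, and was lower at P5. It is a gene of 13904 bases on the plus strand of chromosome 3 (94478295 to 94492198 of mm10, ENSMUSG00000028137.9). It had 128, 125 and 136 CPM in E18 replicates 1, 3 and 4 and 54.5, 50.8 and 52.0 CPM in P5 replicates 6, 8 and 9. The ages were separated by a gap of 1.20 on the log2 scale, and the samples within an age lay close together, with coefficients of variation of 4.69% and 3.59%. Over all genes the median coefficient of variation was 7.94% at E18 and 14.8% at P5. The means were 130 ± 6.08 CPM at E18 and 52.4 ± 1.88 CPM at P5 (SD, n = 3 each). The log2 fold change was 1.31 (standard error 0.0855, 95% confidence interval 1.11 to 1.50, edgeR adjusted p = 7.66e-05). A total of 730 genes, Celf3 included, had a fold change at least as high, and 28 had an adjusted p as low. Without E18 replicate 1, 3 or 4 the log2 fold change was 1.32, 1.34 or 1.27. The dividing-cell markers were highest in E18 replicate 1, and the part of other cells in the Celf3 values was not tested. The exons of Celf3 overlap those of Riiad1 on the opposite strand by 74 bases, 1.35% of their length, and Riiad1 had 1.46 to 2.57 CPM. Sharing of reads between them was not tested.

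The other CELF genes that passed were Celf2 and Celf5, with smaller differences. Celf2 (chromosome 2, 6539694 to 7509563, minus strand) encodes a splicing factor of muscle, brain and lymphocytes. It had 224, 222 and 223 CPM at E18 and 193, 149 and 164 CPM at P5, so the E18 samples were nearly identical while the P5 samples spread. This is a log2 fold change of 0.41 (standard error 0.106, 95% confidence interval 0.17 to 0.65, edgeR adjusted p = 0.0148), a 1.33-fold difference. Its exons overlap the long noncoding RNA Gm26565 on the opposite strand by 1961 bases, 7.58% of their length, and that gene is not in the count table used.

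Celf5 (chromosome 10, 81459227 to 81482709, minus strand) is a close relative of Celf3, Celf4 and Celf6. It had 56.6, 48.1 and 58.9 CPM at E18 and 36.9, 47.8 and 34.0 CPM at P5. The ages barely separated, since E18 replicate 3 and P5 replicate 8 differed by 0.01 on the log2 scale. The log2 fold change was 0.46 (standard error 0.143, 95% confidence interval 0.14 to 0.79, edgeR adjusted p = 0.0298). The call was lost without E18 replicate 1, without E18 replicate 4, without P5 replicate 6 or without P5 replicate 9 (adjusted p = 0.0846 to 0.106), with log2 fold changes of 0.36 to 0.44 in those fits. The antisense gene Gm16105, which is not in the count table used, overlaps 8.14% of its exon length.

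Celf1, Celf4 and Celf6 did not pass the test. Celf1 (chromosome 2, 90940382 to 91019497, plus strand) encodes the widely expressed family member that promotes decay of mRNAs with GU-rich elements. It had 266, 311 and 272 CPM at E18 and 222, 284 and 190.3 CPM at P5. P5 replicate 8 lay inside the E18 range, and the other P5 samples lay below it. The resulting log2 fold change, 0.29 (standard error 0.145, 95% confidence interval -0.04 to 0.61, edgeR adjusted p = 0.142), did not pass. Without P5 replicate 8 it was 0.44 and the edgeR adjusted p was 0.0116, the lowest of all alternatives, which reached 0.373.

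Celf4, on the minus strand of chromosome 18 (25477632 to 25754157), encodes a neuronal protein that controls the stability and translation of many mRNAs and whose loss causes seizures in mice. It had 405, 380.2 and 482 CPM at E18 and 559, 446 and 559.8 CPM at P5. Here too P5 replicate 8 lay inside the E18 range. With a log2 fold change of -0.31 (standard error 0.125, 95% confidence interval -0.59 to -0.02, edgeR adjusted p = 0.0768), Celf4 missed the threshold. Without P5 replicate 8 it was -0.43 (adjusted p = 0.0147) and without E18 replicate 4 it was -0.41 (adjusted p = 0.0385), and over all alternatives the edgeR adjusted p ran from 0.0147 to 0.252. Celf6, another neuronal member (chromosome 9, 59577917 to 59607292, plus strand), had 41.2, 42.0 and 47.6 CPM at E18 and 47.0, 39.8 and 43.9 CPM at P5. These values overlap throughout, with a log2 fold change of 0.00 and a 95% confidence interval of -0.24 to 0.24 (edgeR adjusted p = 0.995).

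**Figure D2:**
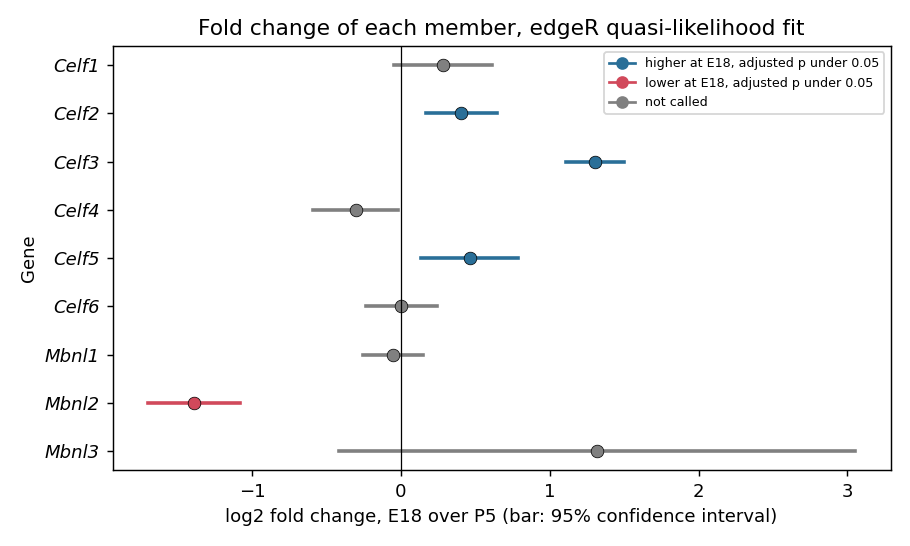
Log2 fold change of E18 over P5 for each member (point) with its 95% confidence interval (bar) from the edgeR fit; blue is called higher at E18, red called lower and grey not called. The interval of Celf3 (1.11 to 1.50) lies to the right of those of the other CELF genes, that of Mbnl2 (-1.70 to -1.08) lies to the left of all others, and that of Mbnl3 is the widest.

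In the muscleblind family Mbnl2 was lower at E18, and Mbnl1 and Mbnl3 did not pass. Mbnl2 (ENSMUSG00000022139.17, chromosome 14, 120275669 to 120431697, plus strand) encodes the main muscleblind protein of the brain, whose loss in mice changes the splicing of postnatal brain exons. It had 44.2, 43.9 and 47.8 CPM in E18 replicates 1, 3 and 4 and 105.7, 106 and 145 CPM in P5 replicates 6, 8 and 9. Every P5 sample lay above every E18 sample by at least 1.15 on the log2 scale, with P5 replicate 9 highest. The means were 45.3 ± 2.16 CPM at E18 and 119 ± 22.7 CPM at P5 (SD, n = 3 each). The log2 fold change was -1.39 (standard error 0.135, 95% confidence interval -1.70 to -1.08, edgeR adjusted p = 0.000271), and 1023 genes, Mbnl2 included, had one at least as low. Without P5 replicate 9 it was -1.23 and without E18 replicate 1 it was -1.37. The antisense gene Gm26679, which is not in the count table used, overlaps 86 bases of its exons.

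Mbnl1 (chromosome 3, 60472830 to 60629750, plus strand) encodes the main muscleblind protein of skeletal muscle. It had 45.9, 48.6 and 49.1 CPM at E18 and 51.0, 50.9 and 47.1 CPM at P5, and the ages overlapped. Its log2 fold change was -0.05, with a 95% confidence interval of -0.25 to 0.15 (edgeR adjusted p = 0.651). Thus Mbnl1 and Mbnl2 had similar CPM at E18, and at P5 the CPM of Mbnl2 was higher in each sample.

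Mbnl3, an X-linked gene (51117269 to 51206532, minus strand) whose product is known from progenitor cells and placenta, was close to the limit of detection. It had 47, 34 and 5 raw counts at E18 and 19, 10 and 5 raw counts at P5, or 0.567, 0.303 and 0.0552 CPM and 0.214, 0.102 and 0.0532 CPM. The samples overlapped, E18 replicate 4 and P5 replicate 9 being equally low. The log2 fold change of 1.32 (standard error 0.763, 95% confidence interval -0.42 to 3.05, edgeR adjusted p = 0.191) fell to 0.59 without E18 replicate 1 and rose to 1.95 without P5 replicate 6. Without E18 replicate 4 it was 1.81 (edgeR adjusted p = 0.0432), and over all alternatives the adjusted p ran from 0.0432 to 0.592. Across E18 replicates 1, 3 and 4 the dividing-cell markers summed to 373, 150 and 90.4 CPM, the same order as Mbnl3, and their part in the Mbnl3 counts was not tested.

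Levels of different genes were compared as CPM per kilobase of the longest coding transcript in GENCODE. At E18, Celf4 was highest in the CELF family, with 106 ± 13.2 CPM per kilobase (SD, n = 3), followed by Celf3 (40.9 ± 1.92), Celf1 (36.0 ± 3.09), Celf2 (25.2 ± 0.130), Celf6 (14.7 ± 1.18) and Celf5 (12.4 ± 1.29). Of these neighbours, Celf3 and Celf1 overlapped between samples, and Celf6 and Celf5 did not. At P5 the order was Celf4 (131 ± 16.4), Celf1 (29.6 ± 6.09), Celf2 (19.0 ± 2.52), Celf3 (16.5 ± 0.594), Celf6 (14.7 ± 1.20) and Celf5 (9.02 ± 1.66), so Celf3 moved from position 2 to position 4, where its samples overlapped those of Celf2 and not those of Celf6. Among the muscleblind genes, Mbnl2 had 9.96 ± 0.474 CPM per kilobase at E18 and 26.1 ± 4.99 at P5, Mbnl1 8.46 ± 0.306 and 8.78 ± 0.395, and Mbnl3 0.0663 ± 0.0550 and 0.0265 ± 0.0178. The order of Celf1, Celf2, Celf3 and Celf6 depends on the transcript length chosen. With the length of all exons joined, Celf1 stood above Celf3 at E18, and Celf4 was highest at each age. With the shortest coding transcript, 529 bases for Celf2, Celf2 stood first. In CPM, without division by length, Celf3 was at position 4 of the CELF genes at each age.

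The make-up of each family also differed between the ages. The summed CELF level per kilobase overlapped between the ages, at 224 to 253 CPM per kilobase at E18 and 205 to 231 at P5. Within that sum, Celf4 held 44.6%, 42.4% and 47.7% in the E18 samples and 60.5%, 54.5% and 63.2% in the P5 samples. Celf3 held 17.0% to 17.7% at E18 and 7.39% to 7.81% at P5, a difference of 9.87 percentage points between the means. That difference was 6.26 points without division by length and 3.55 points with the shortest transcripts. These shares did not overlap, unlike the CPM of Celf4 itself. The ratio of Celf4 to Celf3 was 2.42 to 2.80 at E18 and 6.98 to 8.55 at P5. The summed muscleblind level was 17.9 to 19.2 CPM per kilobase at E18 and 32.3 to 40.2 at P5, without overlap. Mbnl2 held 52.7% to 54.7% of it at E18 and 71.9% to 79.3% at P5, with Mbnl1 holding nearly all the rest. The ratio of Mbnl2 to Mbnl1 was 1.20, 1.12 and 1.21 at E18 and 2.58, 2.59 and 3.83 at P5. The order at E18 depends on length. Without division by length, the E18 means were 45.3 CPM for Mbnl2 and 47.8 CPM for Mbnl1. No test was made on these shares and ratios; the smallest p that an exact permutation of 3 samples against 3 allows is 0.1.

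**Figure D3:**
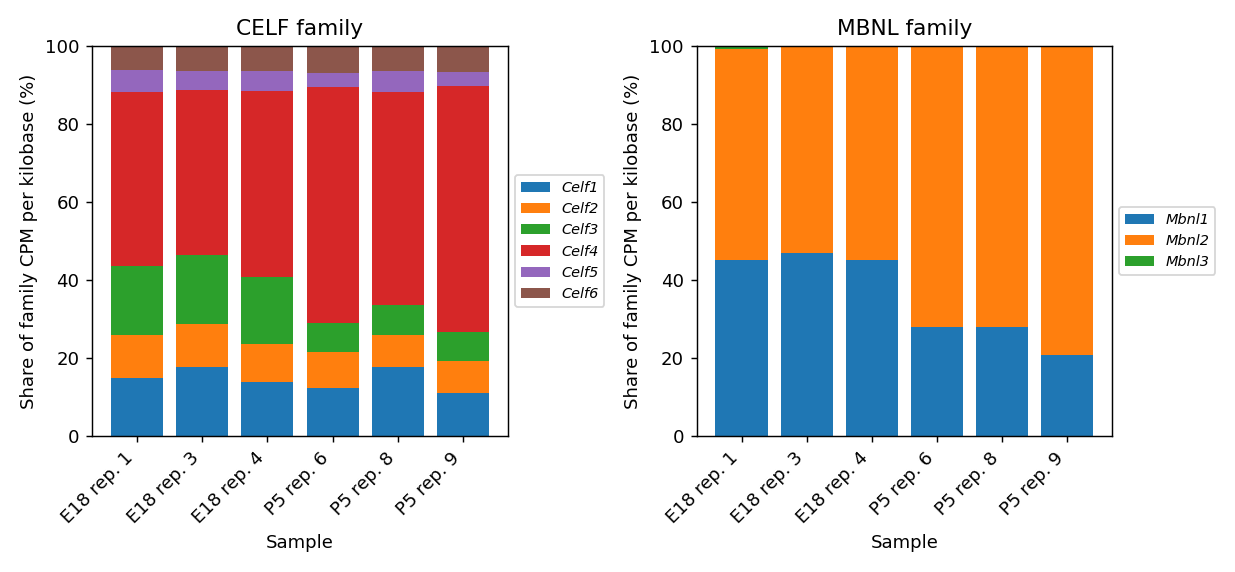
Share of each member in the summed CPM per kilobase of its family, one bar per sample, for the CELF genes on the left and the muscleblind genes on the right. The Celf3 band narrows from about 17% at E18 to 7.39% to 7.81% at P5 while the Celf4 band widens, and the Mbnl2 band widens from 52.7% to 54.7% at E18 to 71.9% to 79.3% at P5.

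Transcripts known to be bound or spliced by these proteins were then read from 2 lists. Of 16 CELF target RNAs, 4 were called higher at E18 and 8 lower, with a median log2 fold change of -0.37. Those called lower include Tnnt2, which averaged only 0.0818 CPM at E18 and 0.329 CPM at P5, and Cebpb, with 0.527 and 1.44 CPM. With genes restricted to a mean of at least 10 CPM, 3 CELF targets were called higher and 7 lower. Tnnt2 and Cebpb fall below that minimum, so the 7 include a gene that was not among the 8. Of 25 MBNL target RNAs, 24 were tested, 8 were called higher and 9 lower, and the median was 0.02. The lists share 6 genes, App, Clcn1, Grin1, Insr, Mapt and Tnnt2. Over all genes 43.4% were called and the median was 0.00. In the first list the number called higher was 2 without E18 replicate 3, P5 replicate 6 or P5 replicate 9, and in the second it was 4 without P5 replicate 9 and 5 without E18 replicate 3, E18 replicate 4 or P5 replicate 6.

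Among the CELF targets, Jun, an immediate-early factor whose mRNA carries a GU-rich element, had the largest difference towards E18 in that list, counting genes that averaged 10 CPM or more. It had 157, 128 and 175 CPM at E18 and 97.0, 45.6 and 59.9 CPM at P5 (log2 fold change 1.19, edgeR adjusted p = 0.00607). The insulin receptor gene Insr, one exon of which is a classical target of CELF1 and MBNL1, had 146 to 176 CPM at E18 and 94.3 to 117 CPM at P5 (0.66, edgeR adjusted p = 0.00270). Of genes averaging 10 CPM or more, those lowest at E18 relative to P5 were Cdkn1a, the cell cycle inhibitor p21, and Grin1, the obligatory subunit of NMDA receptors. Cdkn1a had 14.6 to 17.3 CPM at E18 and 33.3 to 37.0 CPM at P5 (-1.15, edgeR adjusted p = 0.000243). Grin1 had 26.2 to 35.7 and 51.4 to 76.1 CPM (-1.01, edgeR adjusted p = 0.00239).

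Among the MBNL targets, Insr and Grin1 were again among the named genes. Dlg2, a synaptic scaffold, had 158 to 203 CPM at E18 and 384 to 544 CPM at P5 (log2 fold change -1.41, edgeR adjusted p = 0.000362). The calcium release channel gene Ryr1 had 21.7 to 28.6 CPM and 13.3 to 19.9 CPM (0.56, edgeR adjusted p = 0.0278). Mapt, which encodes tau and has exons under the control of CELF and MBNL proteins, had 1941 to 2338 CPM at E18 and 1552 to 1855 CPM at P5 (0.32, edgeR adjusted p = 0.0367). Cacna1d, a calcium channel gene spliced by Mbnl2 in brain, did not pass, with a log2 fold change of -0.01 (edgeR adjusted p = 0.916). Mapt and Cacna1d are named after their values were seen.

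The other lists held genes that act on the families. Of 8 modifiers and partners of CELF1, such as kinases that phosphorylate it, 4 were called higher at E18 and 2 lower, with a median log2 fold change of 0.31, against 20.8% higher and 22.5% lower over all genes. Cdk4, which modifies CELF1 together with cyclin D3, had 120 to 141 CPM at E18 and 59.6 to 70.4 CPM at P5 (log2 fold change 1.00, edgeR adjusted p = 0.000341), and Akt1 had a smaller difference (0.34, edgeR adjusted p = 0.0196). The protein kinase C genes Prkca (-0.89, adjusted p = 0.00137) and Prkcb (-0.45, adjusted p = 0.00579) were lower at E18 in the same edgeR test. Parn, the deadenylase recruited by CELF1, did not pass (-0.14, edgeR adjusted p = 0.296) and is named after its values were seen. The number called higher in this list was 1 without E18 replicate 3 or without P5 replicate 6, and 2 without E18 replicate 1, E18 replicate 4 or P5 replicate 9.

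Of 10 genes at the myotonic dystrophy loci or known to bind CUG repeats, 6 were called higher at E18 and none lower by edgeR, where 0 fell at an unadjusted p under 0.05 and DESeq2 called 0 lower. The median log2 fold change was 0.42, and 20.8% of all genes were called higher. Hnrnph1, a splicing regulator that binds CUG repeat RNA, had 688 to 807 CPM at E18 and 331 to 451 CPM at P5 (0.91, edgeR adjusted p = 0.000975). Ddx6, an RNA helicase of cytoplasmic RNA granules, had 182 to 216 CPM and 113 to 138 CPM (0.63, edgeR adjusted p = 0.00245). Counted once each, the 52 genes tested in the 4 lists held 19 that were higher at E18 and 16 that were lower, 67.3% called. Over all genes 43.4% were called, 20.8% higher and 22.5% lower. The lists were written from knowledge of these proteins, and the share is given as a description of them.

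**Figure D4:**
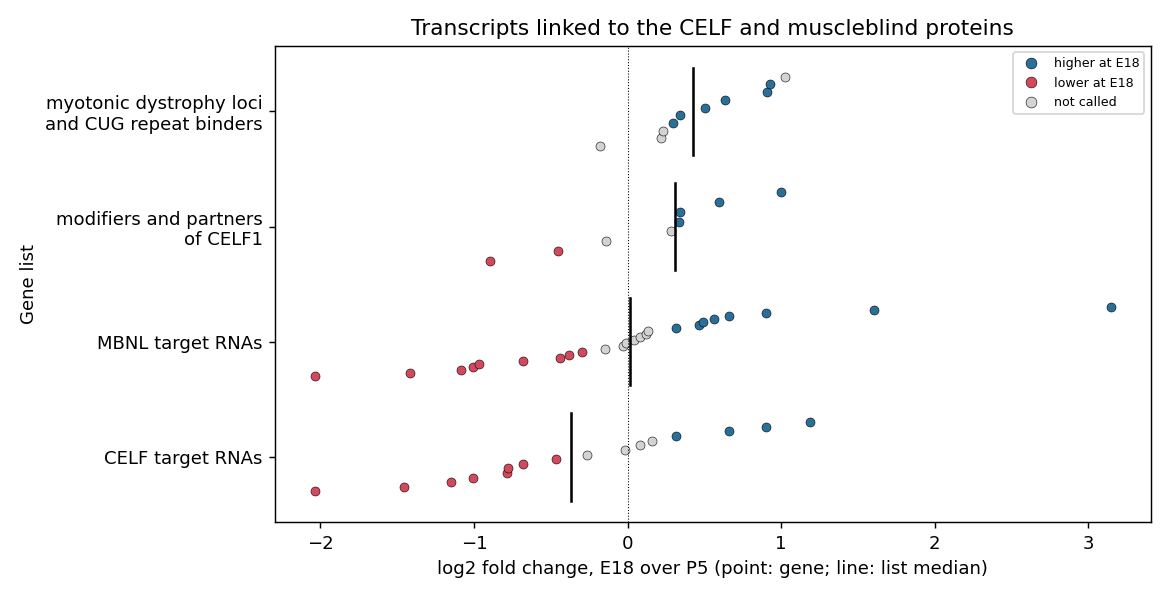
Log2 fold change of E18 over P5 for each gene (point) of the 4 lists linked to the CELF and muscleblind proteins, with list medians as black lines; blue is called higher at E18, red called lower and grey not called. The target lists spread to each side of 0, and in the list of myotonic dystrophy loci and CUG repeat binders no gene was called lower.

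The genes whose profiles over the 6 samples were most like those of Celf3 and Mbnl2 were then sought. The search covered the 9725 genes that averaged 10 CPM or more, a count that includes Celf3 and Mbnl2. Likeness was the root mean square difference of log2 CPM centred on each gene's mean. Nearest to Celf3 were Ddit3 (difference 0.0911), Zfhx3 (0.0972) and Suv420h2 (0.0999), with log2 fold changes of 1.20, 1.31 and 1.11. Nearest to Mbnl2 were Lypd6 (0.0555), Slc48a1 (0.0672) and Clip4 (0.0674), with log2 fold changes of -1.40, -1.29 and -1.32. The samples fall into 2 ages, so this likeness rests mainly on the difference between them.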

How the data were processed

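Per the study's methods, ribosomal RNA was removed, and the authors took paired reads of 100 bases through STAR (mm10) and HT-seq (RefSeq genes). The labels name polyA RNA instead. Strand and multi-mapping settings are not given in the sources used here. The raw counts deposited by the authors were used. The normalized counts (a signal scaled by the authors), the rank, and the log2 fold changes and p-values deposited by the authors were not used. After its expression filter, edgeR 4.0.16 (R 4.3.3) gave TMM factors and the quasi-likelihood test with Benjamini-Hochberg adjustment over all genes tested, with DESeq2 1.42.0 among the alternatives, on E18 and P5 samples grouped by title. Code was tested on simulated data. Replicates differed by far more than sampling noise (chi-square per degree of freedom 30.5 to 141). Standard errors follow from the F statistic. Gene coordinates and lengths are GENCODE M21. Genes named are the members, the 2 largest called rises and falls of each list that averaged 10 CPM or more, and the 3 nearest profiles; others are stated. The members and lists were chosen with earlier results of these data known. The values of 1 listed gene are not reported here.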

Additional observations from a re-analysis of the deposited data

How the results depend on the processing

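No paired analysis was possible because the ages share no replicate number. Celf2, Celf3 and Mbnl2 were called in the same direction under all 12 alternatives, with log2 fold changes of 0.31 to 0.50, 1.26 to 1.34 and -1.49 to -1.23, and Mbnl1 was called in none. With the genes restricted to a mean of at least 10 CPM, 2231 genes were called higher at E18 and 2415 lower, against 3426 and 3709, and 5 of the MBNL targets instead of 8 were called higher, since fewer genes were tested. Leaving out single samples gave 2137 to 4135 genes called higher and 2438 to 4661 lower, fewest without E18 replicate 3 and most without P5 replicate 8. The members called were 2 to 4 higher and 1 to 2 lower. Celf4 was added to those called lower without E18 replicate 4 or P5 replicate 8, Celf1 to those called higher without P5 replicate 8, and Mbnl3 without E18 replicate 4. The counts called higher were 2 to 4 for CELF targets, 4 to 8 for MBNL targets, 1 to 5 for CELF1 modifiers and 4 to 7 for the myotonic dystrophy list. The log2 fold change of Celf6 changed sign to -0.0202 with the 10 CPM minimum, and ranged from -0.0786 to 0.0451 when single samples were left out. The Celf3 share of its family differed between the ages by 9.87 percentage points, by 6.26 without division by length and by 3.55 with the shortest transcripts, where Celf2 has a short model. The low counts of Mbnl3 limit what can be read from it.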

Other observations

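P5 replicate 8 lay nearer to the E18 samples than the other P5 samples did for some members only. Its Celf1 level of 284 CPM, its Celf4 level of 446 CPM and its Celf5 level of 47.8 CPM were each the P5 value closest to the E18 mean. In Celf2 it was the P5 sample farthest from E18, at 149 CPM, and in Celf3 it was also the farthest, at 50.8 CPM. Over all genes, 8796 were called without P5 replicate 8 and 7135 with it. The Celf2 values at E18 had a coefficient of variation of 0.515% over 3 samples, against a median of 7.94% over all genes. The cause was not tested.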
